A study of Mus musculus with 2 samples.

Results

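The miR-135 family comprises 3 annotated loci in the mouse, Mir135a-1, Mir135a-2 and Mir135b. They were taken by their Ensembl identifiers in GENCODE M21 from 2202 microRNA loci counted in small RNA libraries of the developing cerebral cortex. The tissue was the left cerebral cortex of female mice aged 14 days, whose strain, B6CASTF1/J, is a first-generation cross of C57BL/6J with a CAST strain. RNA shorter than 30 nt was sequenced, and the labels give 1 group of 2 biological replicates, with no treatment, mutant or second tissue. Several females are mentioned in the label of replicate 1, and a single female in that of replicate 2. Both cite the same donor record, and nothing states whether animals were pooled, so spread between the libraries may be technical in part. In a bulk tissue of this kind, fewer cells of a type and less of a microRNA per cell cannot be told apart.

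MicroRNAs are cut from a hairpin precursor. The mature strand from the 5′ side (5p) or the 3′ side (3p) is loaded into an Argonaute protein and finds target mRNAs mainly through its seed, bases 2 to 8. The miR-135 family is known from the nervous system. It promotes axon growth and regeneration, with the transcription factor Klf4 as a described target, and in serotonergic neurons it represses the serotonin transporter gene Slc6a4 and the serotonin receptor gene Htr1a.

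The mature sequences show which product the loci share. Of the family's products, miR-135b-5p is named only, and 4 distinct mature sequences from RefSeq on GRCm38.p6 are printed 5′ to 3′ with the seed in capitals.
miR-135a-5p: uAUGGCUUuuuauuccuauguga
miR-135a-1-3p: uAUAGGGAuuggagccguggcg
miR-135a-2-3p: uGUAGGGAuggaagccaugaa
miR-135b-3p: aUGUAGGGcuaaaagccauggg
Mir135a-1 and Mir135a-2 encode the same 5p sequence of 23 nt, whereas each of the 3 loci has a 3p sequence of its own. The 3 seeds of the 3p sequences differ from each other, and each occurs in 1 of the 1679 distinct mature sequences of the table. The 3p sequences of Mir135b and Mir135a-2 have 8 consecutive bases in common at most, and those of Mir135a-1 and Mir135a-2 have 7.

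The hairpins show where a read can be assigned to a locus. Capitals mark the 24 nt that are identical in Mir135a-1 and Mir135a-2 and, in Mir135b, the bases of its best match to that stretch.
Mir135a-1: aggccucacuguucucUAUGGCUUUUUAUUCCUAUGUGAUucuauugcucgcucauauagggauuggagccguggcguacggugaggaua
Mir135a-2: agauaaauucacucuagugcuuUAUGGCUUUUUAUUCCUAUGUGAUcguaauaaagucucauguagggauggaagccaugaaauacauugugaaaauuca
Mir135b: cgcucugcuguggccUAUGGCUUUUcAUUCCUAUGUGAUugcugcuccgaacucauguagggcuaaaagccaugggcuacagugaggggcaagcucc
The Mir135b hairpin matches miR-135a-5p over 23 nt with 1 mismatch, U11C, counted from 1 at the 5′ end of miR-135a-5p. The mismatch lies outside the seed, so that the letters AUGGCUU are also present in the Mir135b hairpin. Of all stretches of 20 nt in the Mir135a-1 hairpin, 5 of 71 were also present in another microRNA locus, and that locus was Mir135a-2. For Mir135a-2 this held for 5 of 81 and for Mir135b for 0 of 78. The whole of miR-135a-5p lies inside the repeated stretch, and none of the 3p bases does. A read from within that stretch maps to both Mir135a loci. Such multiply mapped reads were tallied separately in the files and counted at no gene. They made up 40.6% of the reads of replicate 1 and 37.9% of those of replicate 2. Counts at Mir135a-1 and Mir135a-2 therefore leave out reads of miR-135a-5p that end inside the repeat, and they are uncertain as levels of that microRNA. The files give 1 count per locus and do not divide it between the 5p and 3p strands.

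**Figure D1:**
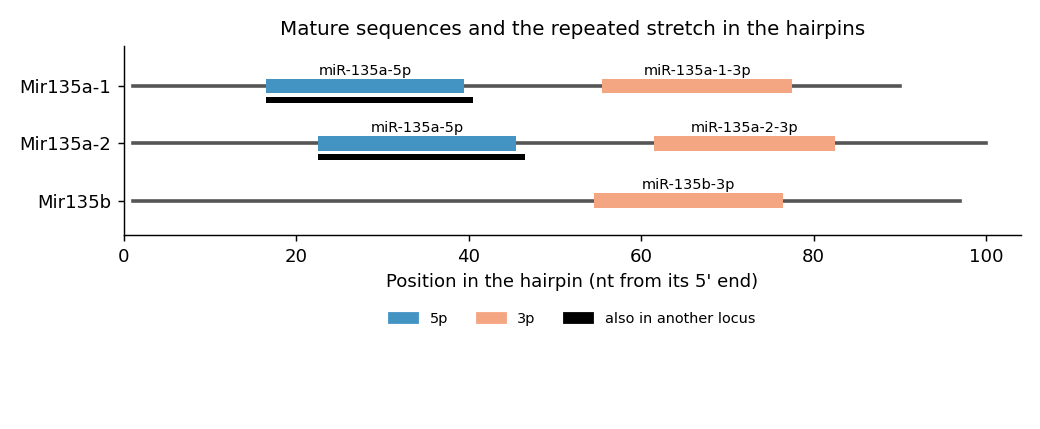
The 3 hairpins drawn to scale, with position in nt from the 5′ end on the x axis, the mature sequences listed by RefSeq as coloured bars and the stretch that also occurs in another microRNA locus as a black bar. The black bar spans positions 17 to 40 in Mir135a-1 and 23 to 46 in Mir135a-2, under the 5p bar of each, and Mir135b has none.

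Each locus lies within a longer gene. Mir135b (ENSMUSG00000065435.1; mm10 chromosome 1, 132198088 to 132198184, plus strand, 97 nt) is in an intron of the protein-coding gene Lemd1, and in an intron of AC124108.1 on the same strand. Mir135a-2 (ENSMUSG00000065524.1; chromosome 10, 92072086 to 92072185, minus strand, 100 nt) is in an intron of Rmst, a long non-coding RNA linked to neurogenesis. Mir135a-1 (ENSMUSG00000065407.1; chromosome 9, 106154124 to 106154213, plus strand, 90 nt) is in an intron of the non-coding gene D030055H07Rik. On the opposite strand it lies inside an exon of Glyctk, which encodes glycerate kinase. No read was counted on the opposite strand of any of the 3 loci in either library, which allows up to 3 reads per library.

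Replicate 1 held 2740332 gene-assigned reads and replicate 2 held 3207941. Levels are given in CPM, the reads on the RNA strand scaled to a gene-assigned total of 1000000, so that 3 reads correspond to 1.09 CPM (replicate 1) or 0.935 CPM (replicate 2). A locus is called detected with at least 10 reads in each library, which held for 389 loci and for 3 of 3 members. Loci known from neurons, such as Mir128-1, Mir132 and Mir137, summed to 3.34% and 4.25% of gene-assigned reads in replicates 1 and 2. Of 5 muscle loci 4 were at 0 in both, and these were the paired loci of Mir1a and Mir133a. Reads of a mature sequence shared by such a pair are counted at neither locus. Their zeros therefore do not show that these microRNAs were absent. The muscle locus Mir206 had 79 and 100 reads, the liver locus Mir122 had 167 and 138, and the gut locus Mir194-2 had 60 and 31. In mean level Mir122 (52.0 CPM) and Mir206 (30.0 CPM) lay above Mir135a-1 (26.7 CPM), and Mir122 also above Mir135a-2 (44.1 CPM). Mir135b (88.5 CPM) lay above all 3 of these loci. Some loci known from other tissues thus reached the levels of the Mir135a loci, and the source of these reads was not tested.

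By counted reads Mir135b was the most abundant member, followed by Mir135a-2 and then Mir135a-1, in both libraries. The counts of the Mir135a loci leave out reads of miR-135a-5p that end inside the repeat. Mir135b holds no such repeat, so the order need not be that of the mature microRNAs. Mir135b had 275 reads in replicate 1 (exact Poisson 95% interval 243 to 309) and 246 in replicate 2 (216 to 279), or 88.5 ± 16.7 CPM (SD, n = 2). Mir135a-2 had 122 reads (101 to 146) and 140 reads (118 to 165), or 44.1 ± 0.621 CPM. Mir135a-1 had 67 reads (51.9 to 85.1) and 93 reads (75.1 to 114), or 26.7 ± 3.21 CPM. These intervals and the floor of 3 reads reflect counting error alone. The labels mention no molecular identifiers, so copies of 1 molecule cannot be told apart and the intervals may be too narrow. The lowest Mir135b level, 76.7 CPM, lay above the highest Mir135a-2 level, 44.5 CPM, and the lowest Mir135a-2 level, 43.6 CPM, lay above the highest Mir135a-1 level, 29.0 CPM. No neighbours in this order overlapped.

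Mir135b exceeded Mir135a-2 by 2.25-fold in replicate 1 (exact binomial 95% interval 1.81 to 2.81) and by 1.76-fold in replicate 2 (1.42 to 2.18). It exceeded Mir135a-1 by 4.10-fold (3.13 to 5.44) and 2.65-fold (2.08 to 3.40). Within the pair that encodes the same 5p sequence, Mir135a-2 stood above Mir135a-1 by 1.82-fold (1.34 to 2.49) and 1.51-fold (1.15 to 1.98). These intervals leave out a ratio of 1 in each library, but the 2 libraries give no estimate of how the ratios vary among animals. The ratios of Mir135b to the pair also set its counts against counts that lack reads of the shared 5p sequence. Per 100 nt of hairpin, the levels were 91.3 ± 17.3 CPM for Mir135b, 44.1 ± 0.621 CPM for Mir135a-2 and 29.7 ± 3.57 CPM for Mir135a-1, in the same order.

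**Figure D2:**
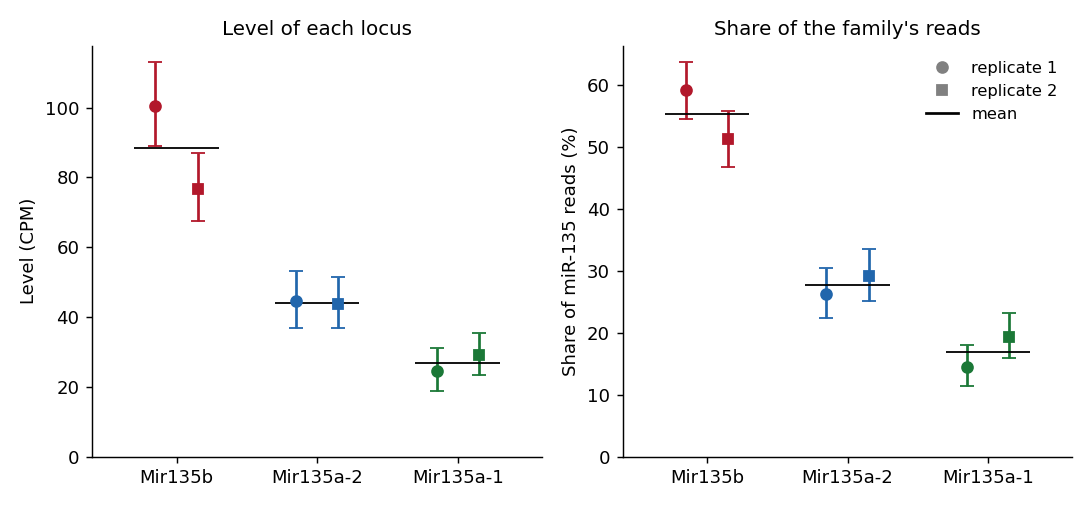
Level in CPM (left) and share of the family's reads in percent (right) for each locus, with circles for replicate 1, squares for replicate 2, black lines for the mean of n = 2, and bars for exact 95% intervals of counting (Poisson on the left, binomial on the right). Mir135b lies above Mir135a-2 and Mir135a-2 above Mir135a-1 in each library.

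Together the family held 464 reads in replicate 1 and 479 in replicate 2. These were 169 CPM (exact Poisson 95% interval 154 to 185) and 149 CPM (136 to 163), with a mean of 159 ± 14.1 CPM (SD, n = 2), or 0.0159% of gene-assigned reads. Mir135b supplied 59.3% of the family's reads in replicate 1 (exact binomial 95% interval 54.6% to 63.8%) and 51.4% in replicate 2 (46.8% to 55.9%). Mir135a-2 supplied 26.3% (22.3% to 30.5%) and 29.2% (25.2% to 33.5%), and Mir135a-1 supplied 14.4% (11.4% to 17.97%) and 19.4% (16.0% to 23.2%). For each locus the intervals of the 2 libraries overlap, which does not show that the shares agree, and a difference between the libraries was not tested. Because reads of the shared 5p sequence are left out, these are shares of uniquely placed reads and not of the mature microRNAs.

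By mean level Mir135b was at rank 216, Mir135a-2 at rank 245 and Mir135a-1 at rank 269 of 2202 loci. The 3 members lay below the median of the detected loci, 149 CPM, and above their lower quartile, 19.8 CPM. The 2 loci closest to each member were found by the Euclidean distance of log2(CPM + 1) over the 2 libraries. For Mir135b these were Mir16-2 (distance 0.18, 259 and 276 reads) and Mir6236 (0.19, 241 and 242 reads). For Mir135a-2 they were Mir24-1 (0.18, 115 and 157 reads) and Mir503 (0.20, 139 and 149 reads), and for Mir135a-1 Gm49347 (0.096, 63 and 96 reads) and Mir1969 (0.11, 63 and 88 reads). With 2 libraries such likeness describes a level and no more.

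**Figure D3:**
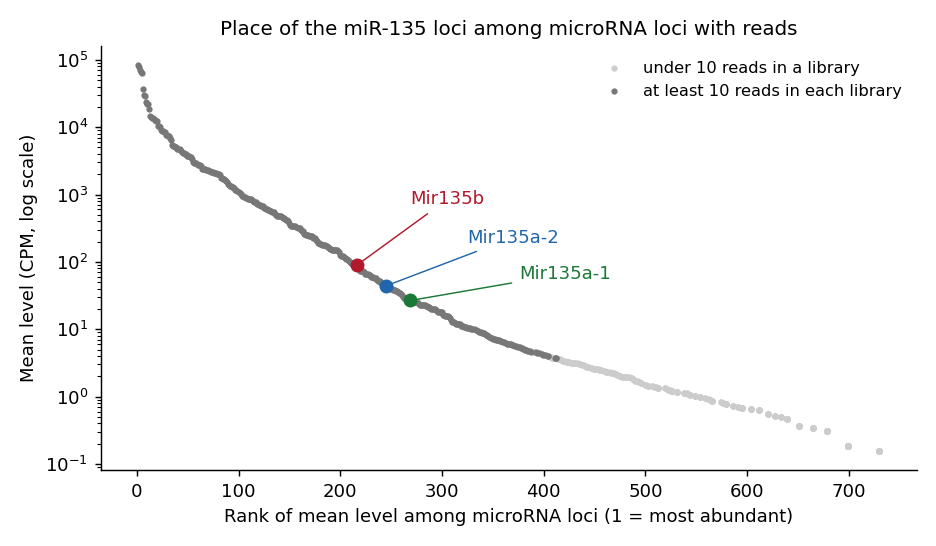
Mean level in CPM (log scale) against rank for all microRNA loci with reads, with dark points for detected loci, pale points for the others and the miR-135 loci in colour. The 3 members lie at ranks 216, 245 and 269, from 88.5 to 26.7 CPM.

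Neighbouring microRNA loci were at levels far from those of the members. Mirlet7g, a member of the let-7 family that rises as tissues differentiate, lies 24.626 kb from Mir135a-1 on the same strand, in another gene (Wdr82), and was the only other microRNA locus within 50 kb of a member. It had 242307 reads in replicate 1 and 170593 in replicate 2, which is 3617 and 1834 times the reads of Mir135a-1. Mir1251, which was named after its values were seen, lies in Rmst with Mir135a-2, at a distance of 64.954 kb and on the same strand. It had 4 reads in replicate 1 and 22 in replicate 2, against 122 and 140 reads of Mir135a-2.

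The make-up of the family, with a pair of loci that share a mature sequence and another with its own, is also found in the miR-26 family and in the family of miR-103 and miR-107. In the miR-135 family the level of the locus with its own sequence lay closer to that of the pair than in either of these. No other families were compared in this way, so the smaller difference is not shown to be particular to miR-135. On the log2(CPM + 1) scale Mir135b exceeded the mean of Mir135a-1 and Mir135a-2 by 1.57 in replicate 1 and 1.09 in replicate 2 (mean 1.33 ± 0.35, SD, n = 2). Mir26b exceeded Mir26a-1 and Mir26a-2 by 8.72 and 8.37 (8.54 ± 0.25). Mir107 exceeded Mir103-1 and Mir103-2 by 7.23 and 6.61 (6.92 ± 0.44). The ranges of the 3 families did not overlap, and the difference between families was not tested.

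Mir26b and Mir107 stood far above Mir135b. The Mir26a pair lay below the Mir135a pair in each library, and the Mir103 pair reached from below it to above it in replicate 1 and lay below it in replicate 2. Mir26a-1 had 9 and 54 reads and Mir26a-2 had 31 and 62, Mir103-1 had 42 and 16 and Mir103-2 had 170 and 50, against 67 and 93 for Mir135a-1 and 122 and 140 for Mir135a-2. Mir26b had 8401 and 20147 reads and Mir107 had 13196 and 3122, where Mir135b had 275 and 246. The repeated sequence covered 24 nt of each Mir135a hairpin and 25 nt of each Mir26a hairpin, and none of Mir135b or Mir26b. In Mir103-1, Mir103-2 and Mir107 it covered 50, 59 and 47 nt, so Mir107 is itself repeated in part. Reads set aside as mapping to several places could not be returned to these pairs, and their part in the differences was not tested.

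**Figure D4:**
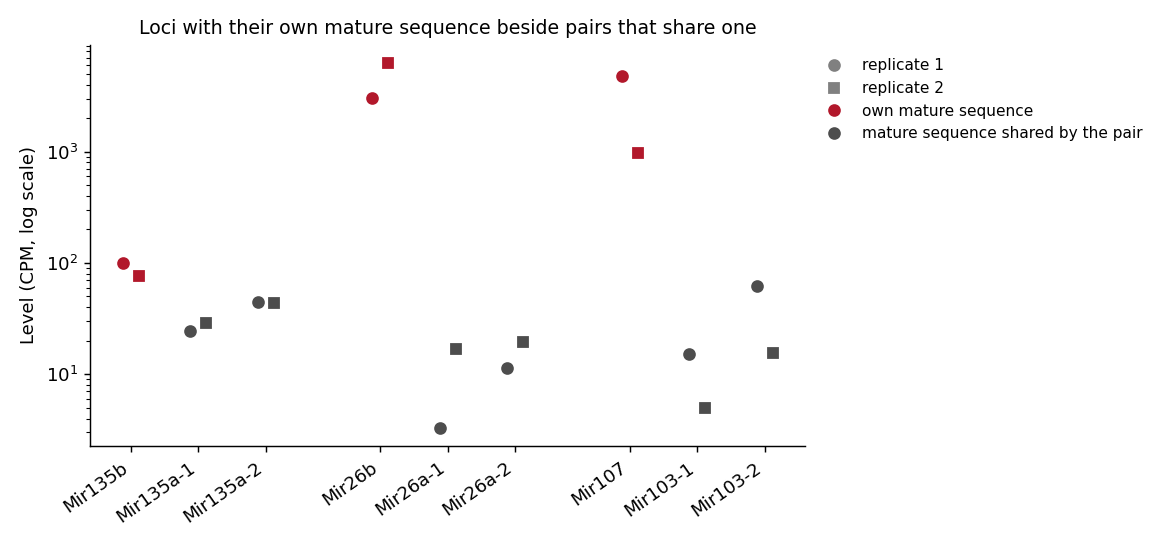
Level in CPM (log scale) of the loci of the miR-135 and miR-26 families and of the family of miR-103 and miR-107, with circles for replicate 1 and squares for replicate 2, red for the locus with its own mature sequence and grey for the pair that shares one. The red points stand far above the grey ones for Mir26b and Mir107, and above them by much less for Mir135b.

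The replicates were then compared locus by locus, which compares these 2 libraries and no conditions. Of the 3 members only Mir135b differed beyond counting error, and it was lower in replicate 2. Library sizes were scaled by the trimmed mean of M values (TMM). The reads of a locus were set against them in an exact binomial test, two-sided, and p-values over the 389 detected loci were adjusted after Benjamini and Hochberg, with a threshold of 0.05. For Mir135b the levels were 100.4 CPM (replicate 1) and 76.7 CPM (replicate 2), with a log2 ratio on the log2(CPM + 1) scale of -0.55 (exact binomial test, adjusted p = 2.8e-05). The scaled reads of replicate 2 were 0.678 of those of replicate 1 (exact 95% interval 0.569 to 0.808). Mir135a-2 had a log2 ratio of -0.20 (exact binomial test, adjusted p = 0.339), with scaled reads at 0.870 of replicate 1 (0.677 to 1.12). Mir135a-1 had a log2 ratio of 0.071 (exact binomial test, adjusted p = 0.859), with scaled reads at 1.05 of replicate 1 (0.760 to 1.46). The intervals of Mir135a-1 and Mir135a-2 overlap that of Mir135b, and whether the members differ in their ratios was not tested.

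Of the 389 detected loci 227 (58.4%) passed the test, 112 higher and 115 lower in replicate 2, so that 1 of 3 members is no more than the background. Higher calls made up 28.8% and lower calls 29.6% of the detected loci. Scaling by library totals in place of TMM gave 159 higher and 77 lower calls, and the median log2 ratio of all detected loci was then 0.16 in place of -0.0098. Relative to these medians Mir135b was lower under both scalings (log2 ratio -0.38 with library totals). Among 55 detected loci whose mean reads lay in the range of the members, 80 to 260.5, the test was passed by 33. The coefficient of variation of the CPM levels between the libraries was 18.9% for Mir135b, 12.0% for Mir135a-1 and 1.41% for Mir135a-2, where counting alone gives 6.20%, 11.2% and 8.74% and the median detected locus had 18.6%. With TMM scaling these coefficients were 27.1% for Mir135b, 3.59% for Mir135a-1, 9.85% for Mir135a-2 and 19.5% for the median locus, so that the order of the Mir135a loci changes with the scaling.

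Markers of some other cell types also differed between the libraries. The 3 oligodendrocyte loci summed to 0.428% of the gene-assigned total in replicate 1 and to 0.148% in replicate 2. Of these, 2 (Mir219a-2 and Mir338) were lower in replicate 2 past the test. The same test was passed by 58.4% of all detected loci, so the count of 2 of 3 does not stand out from the background. In size, the log2 ratios were -2.14 for Mir219a-2, -0.76 for Mir338 and -0.37 for Mir219a-1, which had 35 reads in each library. The SD of the log2 ratio over all detected loci was 0.678. The neuron list was mixed: of its 8 detected loci, 3 had a higher call in replicate 2, 3 a lower call and 2 neither. The endothelial Mir126a stood at 1.67% and 0.939%, and the choroid plexus locus Mir204 at 0.0445% and 0.0893%. The 3 loci of microglia and leukocytes summed to 0.0173% and 0.0165%, with Mir155 lower in replicate 2 past the test, Mir142 not past it, and Mir223 at 3 and 45 reads. Their part in the lower Mir135b level was not tested.

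**Figure D5:**
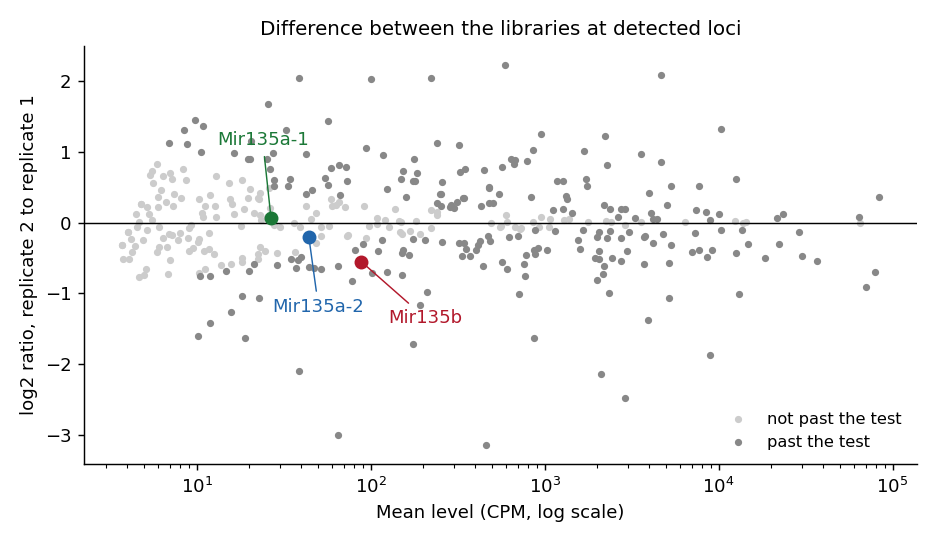
Log2 ratio of replicate 2 to replicate 1 against mean level in CPM (log scale) for the 389 detected loci, with dark points for loci past the exact binomial test, pale points for the others and the miR-135 loci in colour. Mir135b lies below 0 and past the test, and Mir135a-2 and Mir135a-1 lie near 0 among many other loci.

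Other microRNAs with described roles in axon growth lay either above or below all of the miR-135 loci. Of 19 such loci 11 were above Mir135b and 8 below Mir135a-1 in mean CPM, with none between. The most abundant were Mir132, which is induced by neuronal activity, at 9108 ± 961 CPM, Mir138-1 at 5222 ± 2216 CPM, Mir431 at 2756 ± 495 CPM and Mir138-2 at 2188 ± 470 CPM (SD, n = 2 each). Of the 13 detected loci 8 passed the exact binomial test, 2 higher and 6 lower in replicate 2 (3 and 6 with library totals), against 58.4% of all detected loci. Their median log2 ratio was -0.22, against -0.0098 for all. Mir132 (-0.39), Mir138-1 (-1.07) and Mir138-2 (-0.61) were lower, as was Mir135b, and Mir431 was higher (0.20). Several of these loci share mature sequences with others and carry the same uncertainty as Mir135a-1 and Mir135a-2.

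Loci linked to serotonin signalling lay on either side of the miR-135 loci. The list held Mir15a, Mir16-1 and Mir16-2, of the family for which Slc6a4 is a described target, Mir96, which is known to target Htr1b, and 5 loci in introns of Htr2c. Of its 9 loci 4 were above Mir135b, 4 below Mir135a-1 and 1 between. Mir16-1 reached 571 ± 106 CPM, Mir15a 441 ± 95.2 CPM, Mir1298 223 ± 205 CPM and Mir16-2 90.3 ± 5.99 CPM (SD, n = 2 each). In counted reads Mir16-2 and Mir135b did not differ beyond their spread. Mir16-1 and Mir16-2 share a mature sequence, so their counts carry the same uncertainty as those of Mir135a-1 and Mir135a-2. Of 7 detected loci 6 passed the exact binomial test, 3 higher and 3 lower in replicate 2 (4 higher and 2 lower with library totals), against 58.4% of all detected loci. Their median log2 ratio was 0.76, against -0.0098 for all. With TMM the 3 higher calls were all loci in introns of Htr2c, and Mir15a and Mir16-1 lie side by side on chromosome 14. Neither the count nor the median therefore describes 7 independent loci. Mir16-1 (-0.55), Mir15a (-0.61) and Mir16-2 (-0.30) were lower in replicate 2, whereas the Htr2c locus Mir1298 was higher (2.05). Mir96 had 0 reads in both libraries.

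The 3 hairpins differed in base composition and predicted folding. The GC content was 53.6% in Mir135b, 46.7% in Mir135a-1 and 33.0% in Mir135a-2. The minimum free energy predicted by ViennaRNA was -48.7 kcal/mol for Mir135b, -43.5 kcal/mol for Mir135a-1 and -34.5 kcal/mol for Mir135a-2, with 76.3%, 71.1% and 70.0% of bases paired. Per nt, 15.6% of 1005 RefSeq hairpins were predicted to be more stable than Mir135b, 19.6% than Mir135a-1 and 73.4% than Mir135a-2. Mir135a-2, with the weakest predicted folding per nt, had more reads than Mir135a-1, and a relation between folding and read counts was not tested. Aligned end to end, Mir135a-1 and Mir135b were identical at 81.2% of aligned positions, Mir135a-2 and Mir135b at 78.4% and Mir135a-1 and Mir135a-2 at 74.4%. With gap positions counted as differences, these values were 67.6%, 63.3% and 67.0%, so the order of likeness depends on how gaps are treated.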

How the data were processed

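The authors deposited whole read counts per microRNA gene for each library, made with the mouse build mm10 and GENCODE M21, per the file headers and the file list deposited with them. The aligner, the counting tool and the trimming are not stated in the labels or files. Of the 3 count columns, which carry no names, the values mark column 3 as reads on the strand of the RNA, and this column was used. Column 2 ignores strand and column 4 holds the opposite strand. The 4 rows without a gene did not enter library sizes. They held 18.1% (replicate 1) and 22.8% (replicate 2) of reads as unmapped, 40.6% and 37.9% as mapping to several places, and 5.93% and 6.03% as on no microRNA gene, leaving 35.4% and 33.3%.

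All 2202 identifiers matched GENCODE M21. Mature and hairpin sequences came from RefSeq on GRCm38.p6, in which 3 of 3 member hairpins were found. Repeated stretches were searched on both strands in the hairpins of all 2202 loci, not in the genome, which was not used here.

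CPM, intervals and the exact binomial tests were computed with Python 3.11.15 and scipy 1.17.1, TMM scaling with edgeR 4.0.16 over the detected loci, size factors with DESeq2 1.42.0 and folding with ViennaRNA 2.7.2. The ratio test was tried on simulated counts with counting error alone, so its behaviour under wider variation between libraries was not tested. With 1 group of 2 there was no comparison between groups. Named loci were the members, loci within 50 kb of them, the 2 nearest in level to each, the loci of miR-26, miR-103 and miR-107, and up to 4 loci per list, by mean CPM. The members and lists were chosen with earlier results of these data known. Alternatives were the other strand columns, other scalings, minimum reads of 5, 50 or none, a pseudocount of 5, hairpin length, windows of 18 or 22 nt and each replicate left out. Folding and loci in the same host gene were added after seeing the data.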

Additional observations from a re-analysis of the deposited data

How the results depend on the processing

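Of 110 alternative values 101 kept their direction and their side of the threshold, or moved by less than the spread between the libraries. Part of this count was fixed in advance and is no measure of robustness. Leaving out a replicate always moves a mean level, share or difference by less than that spread. The minimum number of reads does not enter the log2 ratio of a member, and the pseudocount does not enter the p-value. The shares with the unstranded column rest on the same reads of the members. The opposite-strand column gave 0 CPM for each of the 3 members. The unstranded column drops reads where loci overlap, which lowers the library totals. With it Mir135a-2 stood at 47.3 CPM, and Mir135b, Mir135a-2 and Mir135a-1 at ranks 197, 223 and 247. Leaving out 1 replicate, the rank of Mir135a-1 was 269 to 271. With a pseudocount of 5 the difference between Mir26b and the Mir26a pair was 8.07 log2 units, since it lifts low values. The order Mir135b, Mir135a-2, Mir135a-1 without overlap held for the RNA strand, the unstranded column, TMM, DESeq2 size factors and levels per 100 nt. The adjusted p of Mir135b ranged from 1.8e-05 to 0.0046 over the alternatives (exact binomial test). No paired analysis was possible because the labels give 1 group, and without either replicate no ratio could be formed. At 67 to 275 reads per member and library, counting error limits the precision, and the files cannot show how much miR-135a-5p was set aside.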

Other observations

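Over all microRNA loci, 1133 of 2202 hairpins held a stretch of 20 nt that also occurs in another locus, on either strand, and 97 of these (8.56%) were detected. Of the 1069 loci without such a stretch 292 (27.3%) were detected. Mir135a-2 and Mir135a-1 were at places 69 and 77 among the 97 detected loci with a repeated stretch, whose median was 180 CPM. Mir135b was at place 156 among the 292 without one, whose median was 135 CPM. Loci annotated over the same place, on the same or the opposite strand, can also hold a shared stretch, such as the entries named Gm24022. Loci with a repeated stretch are therefore not only those whose reads map to several places. The letters AUGGCUU, the seed of miR-135a-5p, were found on the hairpin strand of 8 of 1005 RefSeq hairpins (0.796%), the 3 members included.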
